A study of Mus musculus with 2 samples.

Results

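The 30 genes described here make cholesterol, sense it, take up sterol-carrying lipoproteins, or export, store and break down cholesterol. They were chosen by name, as 18 enzymes of synthesis, 5 genes of sterol sensing, 3 lipoprotein receptors and 4 genes of export, storage and turnover, and all 30 were found among the 43346 mouse genes of the gene tables. RNA was sequenced from 2 libraries, each made from a laser-captured pool of 50 Purkinje cells, the large inhibitory output neurons of the cerebellar cortex. Both pools form 1 group, from wild-type C57Bl6 males aged 8 months (the sample source gives the strain as B6NCrl), with no treatment or second genotype. They are biological replicates 1 and 2 of the labels, called pool 1 and pool 2 here, and their labels share 1 donor identifier across separate biosamples. The spread between them may therefore be technical. A Smart-seq protocol is linked for pool 2 only, and a difference in library preparation cannot be told apart from the difference between the pools.

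Cholesterol is built in the endoplasmic reticulum from acetyl-CoA, first through mevalonate and isoprenoid units to squalene, then through lanosterol and a chain of sterol intermediates. When membrane cholesterol is low, SCAP carries the SREBP transcription factors to the Golgi, where they are cleaved and released to switch on the synthesis genes, and the INSIG proteins hold SCAP back when sterols are plentiful. The brain makes its own cholesterol because lipoproteins of the blood do not cross into it, and adult neurons are held to receive much of theirs from glia in apolipoprotein E particles. Neurons dispose of surplus cholesterol through the hydroxylase CYP46A1.

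SREBP proteins act on the promoters of their target genes, together with partners that bind CCAAT and GC boxes. Those of 3 genes are printed here from the 250 bases before the RefSeq start, 5′ to 3′ on the gene's strand, on GRCm38.p6. For Insig1 and Srebf2 the GENCODE gene, whose transcript was quantified, starts 49 and 88 bases upstream of the RefSeq start, so these promoters are printed only up to the GENCODE start. Hmgcs1 is shown because it alone of the 26 genes with a promoter entry held the core of the sterol response element, TCACNCCAC, and Insig1 and Srebf2, chosen after their values were seen, because they were the highest and the lowest of the sensing genes. Capitals mark every match on either strand to that core, to the E-box CACGTG, to the CCAAT box and to the GC box GGGCGG. They lie at chr13:119690101-119690350 for Hmgcs1, chr5:28071162-28071362 for Insig1 and chr15:82147019-82147180 for Srebf2, each on the plus strand.
Hmgcs1: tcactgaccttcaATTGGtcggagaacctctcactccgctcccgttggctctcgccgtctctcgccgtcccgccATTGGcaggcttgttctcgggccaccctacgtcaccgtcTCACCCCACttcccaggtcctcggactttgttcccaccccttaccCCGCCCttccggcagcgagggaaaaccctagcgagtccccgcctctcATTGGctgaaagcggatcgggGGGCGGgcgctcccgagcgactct
Insig1: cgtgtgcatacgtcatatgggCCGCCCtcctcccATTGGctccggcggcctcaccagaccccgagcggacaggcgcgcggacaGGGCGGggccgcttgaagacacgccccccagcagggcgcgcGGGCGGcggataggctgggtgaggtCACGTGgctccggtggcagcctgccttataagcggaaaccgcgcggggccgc
Srebf2: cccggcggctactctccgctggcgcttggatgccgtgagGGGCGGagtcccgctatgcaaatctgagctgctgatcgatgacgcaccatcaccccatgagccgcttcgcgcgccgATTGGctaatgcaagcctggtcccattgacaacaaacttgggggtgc

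In Hmgcs1 the sterol element core began 137 bases before the RefSeq start, with CCAAT boxes on the opposite strand upstream and downstream of it. Insig1 held no match to that core and an E-box 101 bases before the RefSeq start. The search covered 26 of the 30 genes, with 37 annotated starts between them, and each window ran from 250 bases before to 50 bases after a start. The sterol element core was in 2.70% of the 37 windows, against 1.24% of all 32851 mouse windows of that table. E-boxes were in 18.9% of the windows of the sterol genes, against 7.15% of all windows, and 6 genes held one (Abca1, Dhcr7, Hsd17b7, Insig1, Sc5d and Scap). CCAAT boxes were in 59.5% against 37.4%, and GC boxes in 75.7% against 35.7%. The windows set against them were not limited to genes detected here. Windows of 1 gene can overlap, as those of Scap do, so a site can count more than once. No 2 of these letter patterns overlapped in the printed windows, and a match describes letters only.

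Total depth came to 23830685 expected counts for pool 1 and 27907662 for pool 2, and the share of synthetic ERCC spike-in RNA was 1.40% for pool 1 and 0.940% for pool 2. All 7 Purkinje cell markers were detected, led by Pvalb (6629 TPM in pool 1 and 8173 in pool 2), Pcp2 (6245 and 6524) and Car8 (3440 and 2410). Markers of cells that lie beside Purkinje cells were present too. All 9 markers of Bergmann glia and astrocytes were detected, with a summed TPM of 4147 in pool 1 and 4477 in pool 2, led by Apoe, Slc1a3 and Fabp7, and the lowest was Gfap at 4.90 and 4.97. All 6 oligodendrocyte markers were detected with sums of 218 and 213 TPM, led by Cnp and Mbp, and all 5 granule cell markers with sums of 105 and 135 TPM, led by Gabra6, Neurod1 and Etv1. Of 5 microglial markers 2 were detected (sums of 12.7 and 18.1 TPM, led by C1qb, C1qa and Csf1r), and all 4 endothelial markers were (70.07 and 98.2 TPM, led by Ly6c1, Flt1 and Cldn5). The 4 globin genes, led by Hba-a2, Hbb-bs and Hba-a1, summed to 649 TPM in pool 1 and 2273 TPM in pool 2. None of these markers was at 0 in either pool, and their part in the levels of the sterol genes was not tested. In pooled cells, fewer cells of a type and less RNA per cell cannot be told apart.

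Nearly the whole set was detected. At a TPM (a share of all transcripts in a library, corrected for their length) of 1 or more in each pool, 29 of 30 genes passed, or 96.7%, against 28.8% of all mouse genes and 51.7% of the 21474 protein-coding ones. The exception was Srebf2, at 1.03 TPM in pool 1 and 0.98 TPM in pool 2. The genes were detected but not abundant. Their median level was 11.45 TPM in pool 1 and 9.98 TPM in pool 2, and the median of the pool means was 10.7 TPM, against 11.4 TPM for the 11445 protein-coding genes whose mean TPM was 1 or more. The set summed to 639 TPM in pool 1 and 555 TPM in pool 2. Expected counts per gene ran between 100 and 4608 in pool 1 and between 75 and 4315 in pool 2.

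**Figure D1:**
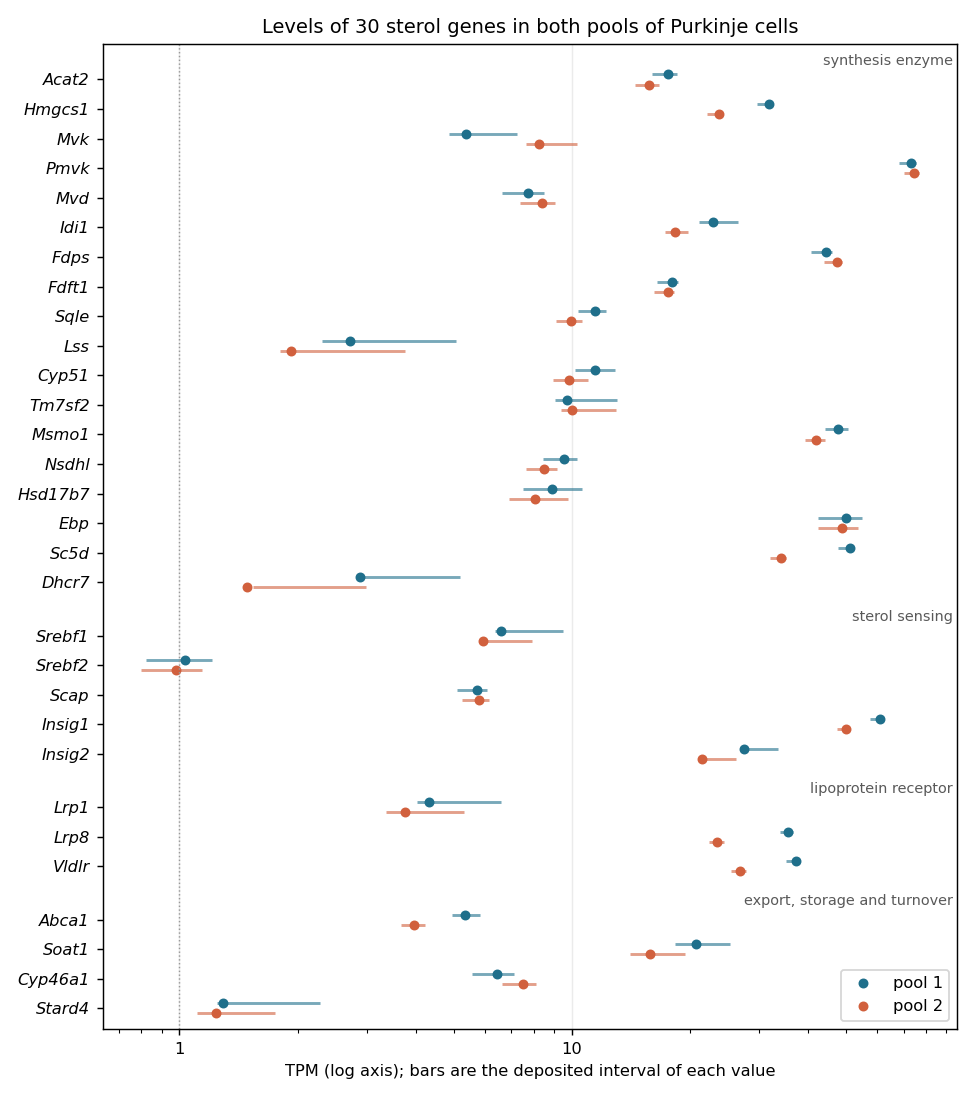
TPM of each of the 30 genes on a log axis, with pool 1 above pool 2 in each row, grouped by role; points are the deposited values, bars their deposited intervals, and the dotted line marks a TPM of 1. Pmvk, Insig1, Ebp, Fdps, Msmo1 and Sc5d lie above 30 TPM in both pools, and Srebf2 and Stard4 lie lowest.

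The first arm of synthesis, which turns acetyl-CoA into isoprenoid units, held the most abundant of the 30 genes by TPM. This was Pmvk (chromosome 3, 89454541 to 89469013 on GRCm38, as all gene spans here), the kinase that adds the second phosphate to mevalonate, with 73.2 TPM in pool 1 and 74.4 TPM in pool 2. Its mean of 73.8 ± 0.813 TPM (SD, n = 2) placed it at percentile 85.7 of those protein-coding genes. The kinase and the decarboxylase on either side of it were far lower. Mvk, mevalonate kinase, had 5.36 TPM in pool 1 and 8.23 TPM in pool 2. Mvd, the mevalonate diphosphate decarboxylase, had 7.73 TPM in pool 1 and 8.37 TPM in pool 2. Pmvk thus stood above both in each pool, and the pool values did not overlap.

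The remaining enzymes of this arm lay between those extremes. Acat2, the cytosolic thiolase that joins acetyl-CoA units, had 17.5 TPM in pool 1 and 15.7 TPM in pool 2. Hmgcs1 (chromosome 13, 119690379 to 119708260), which makes HMG-CoA and whose promoter carries the sterol element core printed above, had 31.7 TPM in pool 1 and 23.7 TPM in pool 2. Idi1, the isomerase of isoprenoid units, had 22.9 TPM in pool 1 and 18.3 TPM in pool 2. Fdps, which joins the units into farnesyl diphosphate, was the second of the arm with 44.5 TPM in pool 1 and 47.4 TPM in pool 2. Median levels of the 7 genes were 22.9 TPM in pool 1 and 18.3 TPM in pool 2.

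The 3 steps that commit farnesyl diphosphate to sterols had a lower median level, 11.5 TPM in pool 1 and 9.97 TPM in pool 2, although Mvk and Mvd of the first arm lay below Fdft1 and Sqle. Fdft1, squalene synthase, had 18.02 TPM in pool 1 and 17.6 TPM in pool 2. Sqle, squalene epoxidase, had 11.5 TPM in pool 1 and 9.97 TPM in pool 2. Lss, lanosterol synthase, which closes the sterol rings (chromosome 10, 76531588 to 76557138), had only 2.72 TPM in pool 1 and 1.92 TPM in pool 2. It was the lowest of these 3 in both pools, and lay at percentile 13.5 of the protein-coding genes. Fdft1 shares 774 exon bases with Ctsb on the opposite strand, and Ctsb had 229 TPM in pool 1 and 212 TPM in pool 2. The strand setting of the authors' counting is unknown here, so the level of Fdft1 is less certain.

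Among the 8 enzymes between lanosterol and cholesterol, 3 were at 34 TPM or more in both pools. Ebp, the sterol double-bond isomerase, had 49.8 TPM in pool 1 and 48.8 TPM in pool 2. Msmo1, the methylsterol oxidase, had 47.6 TPM in pool 1 and 41.9 TPM in pool 2. Sc5d, the sterol desaturase, had 51.1 TPM in pool 1 and 34.2 TPM in pool 2. Ebp and Sc5d act at neighbouring steps of the chain, and Msmo1 acts earlier.

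A middle tier of the same chain lay near 10 TPM. Cyp51, the cytochrome P450 that demethylates lanosterol, had 11.4 TPM in pool 1 and 9.86 TPM in pool 2. The sterol reductase Tm7sf2 had 9.74 TPM in pool 1 and 9.99 TPM in pool 2. Nsdhl, a sterol dehydrogenase, had 9.55 TPM in pool 1 and 8.49 TPM in pool 2. The keto-sterol reductase Hsd17b7 had 8.92 TPM in pool 1 and 8.06 TPM in pool 2. Of these, Cyp51 shares 166 exon bases with Akap9 on the opposite strand, and Tm7sf2 shares 532 with Vps51 on the same strand.

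Dhcr7, the reductase that turns dehydrocholesterol into cholesterol (chromosome 7, 143823145 to 143848410), was the lowest of the 18 enzymes by mean TPM, although Lss was lower in pool 1 and the pool values of both overlapped. Dhcr7 had 2.88 TPM in pool 1, from 109 expected counts, and 1.49 TPM in pool 2, from 75. The 95% counting interval was 2.36 to 3.47 TPM in pool 1 and 1.17 to 1.87 TPM in pool 2, and such intervals cover counting error only. Pmvk exceeded Dhcr7 by 33.8-fold in mean TPM. Of the summed TPM of the 18 enzymes Pmvk took 18.2% ± 1.39 and Dhcr7 0.530% ± 0.207 (SD, n = 2). By expected counts the share of Pmvk was 10.9% ± 1.07, below Sc5d at 12.2% ± 2.37 and Hmgcs1 at 11.6% ± 1.38.

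Among the sensing genes, the inhibitors were far above the transcription factors they hold back. Insig1 (chromosome 5, 28071363 to 28078662), an endoplasmic reticulum anchor of SCAP and itself a known SREBP target, had 61.1 TPM in pool 1 and 50.0 TPM in pool 2. Insig2, its paralog, had 27.4 TPM in pool 1 and 21.4 TPM in pool 2. Scap, the escort and sterol sensor, had 5.73 TPM in pool 1 and 5.81 TPM in pool 2. Insig1 took 69.5% ± 0.683 of the summed Insig TPM (SD, n = 2).

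Both SREBP genes were low. Srebf1 (chromosome 11, 60199089 to 60222581), whose products are known for driving fatty acid and sterol genes, had 6.58 TPM in pool 1 and 5.94 TPM in pool 2. Srebf2 (chromosome 15, 82147181 to 82205379), whose product is known as the main activator of cholesterol synthesis, had 1.03 TPM in pool 1 from 100 counts and 0.98 TPM in pool 2 from 120 counts. Its 95% counting intervals, 0.838 to 1.25 TPM in pool 1 and 0.813 to 1.17 TPM in pool 2, both included a TPM of 1. Srebf2 was thus the lowest of the 30 genes, and Srebf1 took 86.2% ± 0.443 of the summed TPM of both (SD, n = 2). By expected counts, which are not corrected for length, the Srebf1 share was 82.7% ± 0.360. Srebf1 shares 109 exon bases with Rai1 on the opposite strand, and it is 1 of 8 genes of the set with a fractional expected count. Such a count can mark reads divided between genes. For Soat1, another of the 8, the only fraction was in the 1296.01 counts of pool 2, which can be rounding.

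The lipoprotein receptors were led by Vldlr and Lrp8, the receptors that also bind reelin in neurons. Vldlr (chromosome 19, 27216484 to 27254231) had 37.2 TPM in pool 1 and 26.8 TPM in pool 2. Lrp8 (chromosome 4, 107802261 to 107876840), the apolipoprotein E receptor also called ApoER2 in the field, had 35.5 TPM in pool 1 and 23.5 TPM in pool 2. Lrp1, a large endocytic receptor for apolipoprotein E, had 4.33 TPM in pool 1 and 3.76 TPM in pool 2. Vldlr took 48.9% ± 0.916 of the summed receptor TPM, Lrp8 44.8% ± 1.86 and Lrp1 6.29% ± 0.940 (SD, n = 2). The pool values of Vldlr and Lrp8 overlapped, so their order was not resolved. By counts, Vldlr and Lrp8 were the first and second of all 30 genes, with mean transcript lengths of 6420 and 6248 nt, followed by Insig1, Sc5d, Hmgcs1 and then Pmvk.

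Of the genes of export, storage and turnover, Soat1 was the highest. Soat1, which esterifies cholesterol for storage, had 20.7 TPM in pool 1 and 15.8 TPM in pool 2. Cyp46a1, the neuronal hydroxylase through which cholesterol leaves the brain, had 6.46 TPM in pool 1 and 7.49 TPM in pool 2. Abca1, which passes cholesterol to apolipoproteins, had 5.34 TPM in pool 1 and 3.95 TPM in pool 2. Stard4, a soluble cytosolic sterol carrier, had 1.29 TPM in pool 1 and 1.24 TPM in pool 2, next to the lowest of the set by TPM. The pools of Soat1 lay above those of the other 3 genes.

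Ordered by mean TPM, the 30 genes run Pmvk, Insig1, Ebp, Fdps, Msmo1, Sc5d, Vldlr, Lrp8, Hmgcs1, Insig2, Idi1, Soat1, Fdft1, Acat2, Sqle, Cyp51, Tm7sf2, Nsdhl, Hsd17b7, Mvd, Cyp46a1, Mvk, Srebf1, Scap, Abca1, Lrp1, Lss, Dhcr7, Stard4 and Srebf2. Of the 29 pairs of neighbours, 12 had pool values that did not overlap and 17 did overlap. No neighbours between Fdps and Fdft1 in that order were apart. The top of the order (Pmvk over Insig1, Insig1 over Ebp, Ebp over Fdps) and its bottom (Dhcr7 over Stard4, Stard4 over Srebf2) had pool values that did not overlap. Their intervals can still overlap. In pool 2 the deposited intervals of Insig1 (47.3 to 50.6 TPM) and Ebp (42.3 to 53.5 TPM) did. In each pool the counting intervals of Stard4 and Srebf2 did, with 1.07 to 1.54 and 0.838 to 1.25 TPM in pool 1. With transcripts annotated as protein-coding alone, Ebp (40.4 TPM in pool 1 and 39.5 in pool 2) lay below Fdps (44.5 and 47.4 TPM).

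The transcript tables show which RNAs make up these levels. Of 22 genes with more than 1 annotated transcript, 19 had the same leading transcript in both pools by TPM, or 86.4%, against 87.5% of 8634 such genes in the whole table. The genes that differed were Hsd17b7, Lrp1 and Lss, and by expected count all 22 had the same leader. Transcripts annotated as protein-coding took a median of 98.8% of the TPM of the 30 genes, against 99.1% for protein-coding genes above the same minimum. In 3 of 30 genes (Lrp1, Lss and Soat1) they took under 50% on average over the pools, against 12.4% of those genes.

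**Figure D2:**
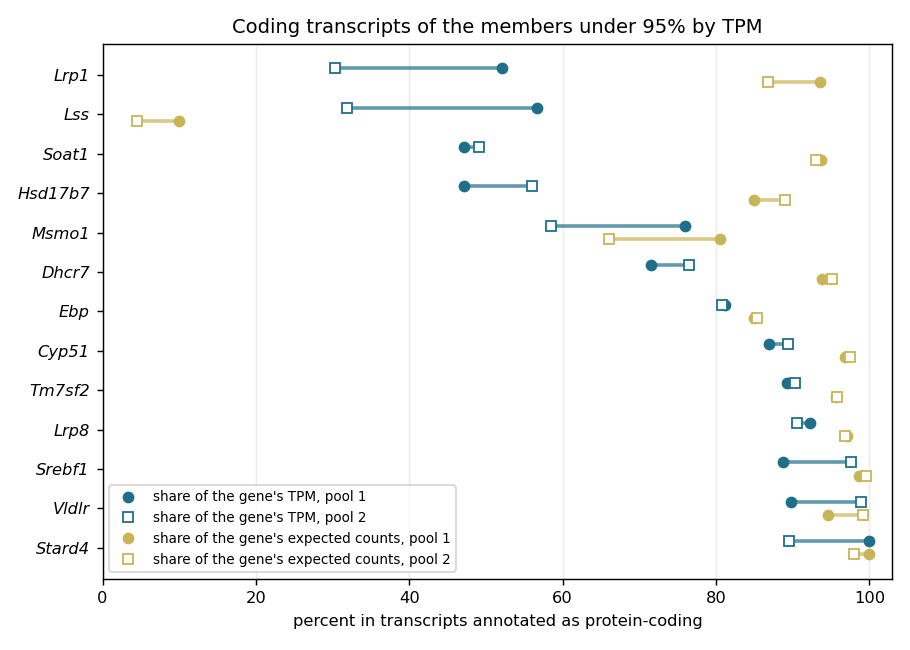
Percent of each gene's TPM (blue) and of its expected counts (yellow) in transcripts annotated as protein-coding, for the genes under 95% by TPM; filled circles are pool 1 and open squares pool 2. Lrp1, Soat1 and Hsd17b7 stand near 50% or lower by TPM and above 80% by counts, whereas Lss is low on both scales.

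Lss is the clearest case. Most of its reads, 162 of its expected counts in pool 1 and 202 in pool 2, were placed on Lss-204, a retained-intron transcript of 6992 nt. The full coding transcript Lss-201 (4667 nt) held 12.0 counts in pool 1 and 7.30 in pool 2. A further coding model, Lss-208, is only 314 nt long with an incomplete end, and its 6 counts in pool 1 and 3 in pool 2 gave 51.7% of the gene's TPM in pool 1 and 28.8% in pool 2. Coding transcripts in all held 18 of the 180 Lss counts in pool 1 and 10.3 of 226 in pool 2. With these transcripts alone Lss had 1.54 TPM in pool 1 and 0.61 TPM in pool 2, and most reads behind the gene level above were placed on RNA that is not annotated as coding for the enzyme.

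In several further genes, among them Soat1, Lrp1, Hsd17b7, Ebp and Dhcr7, short models carried TPM out of proportion to their reads. Ebp-203, a coding model of 526 nt with an incomplete end, took 29.4% of the Ebp TPM in pool 1 and 24.9% in pool 2. It did so from 124 and 131 counts, and Ebp-201 (1743 nt) had 25.8 and 27.3 TPM. Dhcr7-206, a processed transcript of 514 nt, took 28.5% of the Dhcr7 TPM in pool 1 and 23.8% in pool 2, from 6.77 and 3.70 counts. Soat1-203, a retained-intron model of 509 nt, took 52.7% of the Soat1 TPM in pool 1 and 49.7% in pool 2 from 88.6 and 81.1 counts. The coding Soat1-207, of 8371 nt, held 1282 counts in pool 1 and 1151 in pool 2. Coding transcripts of Soat1 had 9.73 TPM in pool 1 and 7.76 TPM in pool 2. Lrp1-208, a retained-intron model of 763 nt, took 40.2% of the Lrp1 TPM in pool 1 and 62.1% in pool 2, and the coding transcripts of Lrp1 had 2.25 TPM in pool 1 and 1.14 TPM in pool 2. Hsd17b7-204, a processed transcript of 810 nt, took 52.9% of the Hsd17b7 TPM in pool 1 and 44.1% in pool 2. Coding transcripts of Hsd17b7 had 4.20 TPM in pool 1 and 4.51 TPM in pool 2, the opposite order of the pools to that of the gene.

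Msmo1 and Vldlr differed between the pools in transcript makeup. The processed transcript Msmo1-206 took 20.5% of the Msmo1 TPM in pool 1 and 37.8% in pool 2, from 237 and 490 counts. The coding transcripts of Msmo1 had 36.1 TPM in pool 1 and 24.5 TPM in pool 2. For Vldlr, the nonsense-mediated decay transcript Vldlr-201 held 218 counts in pool 1 and was listed at 0 in pool 2. The coding Vldlr-207 led in both pools, with 65.5% in pool 1 and 68.9% in pool 2, and Vldlr-202 followed with 23.8% and 28.9%. Such splits between transcripts that share exons are estimates of the authors' quantification.

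Several genes were led by a coding transcript that starts well inside the annotated gene. Srebf1-203 took 81.5% of the Srebf1 TPM in pool 1 and 94.05% in pool 2, with 422 and 557 counts. Its annotated start lies 13416 bases downstream of that of Srebf1-201, which held 39.8 counts in pool 1 and 20.8 in pool 2. However, Srebf1-203 is marked as having an incomplete end, and the mark used here does not tell which end. Dhcr7-202 took 59.9% of the Dhcr7 TPM in pool 1 and 65.0% in pool 2, and its start lies 6459 bases downstream of that of Dhcr7-201. Lrp8-202, with an incomplete end too, took 92.2% of the Lrp8 TPM in pool 1 and 90.2% in pool 2 and starts 28724 bases inside the gene. Insig2-201 starts 4565 bases inside its gene. Pmvk-201 and Fdft1-201, the single transcript of Fdft1, start 4577 and 1785 bases inside the gene spans of GENCODE M21. Those spans are of a later release than the M4 annotation of the counts. For Pmvk and Fdft1 no transcript with a start further upstream was quantified.

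The sterol genes were compared between the pools as a description of replicates. The log2 ratio of pool 1 over pool 2, on TPM with 1 added, had a median of 0.16 over the 30 genes, against 0.07 over the 13210 genes whose mean TPM was 1 or more. It was above 0 for 23 of 30 genes, or 76.7%, against 58.4% of all these genes. On counts scaled by TMM or DESeq2 it was above 0 for 17 of 30. The median of all genes was -0.0002 with TMM and 0.004 with DESeq2, and their share above 0 was not counted. The SD of the ratios on TPM with 1 added was 0.25, against 0.44 over all genes. On this scale Dhcr7, at 0.64, was over 1.5-fold apart, which is 1 of 30 genes, against 11.5% of all genes in either direction and 7.24% with pool 1 higher. That count depends on the scale. It was 3 with 0.1 added (Dhcr7 and Lrp8 higher in pool 1, Mvk higher in pool 2) and 3 with TMM or DESeq2 scaling (Dhcr7 and Lrp1 higher in pool 1, Mvk higher in pool 2). Scaled to the spike-ins it was 13, all higher in pool 2, but there the median of all genes, -0.66, was itself past 1.5-fold. The shares of all genes past the limit on these other scales were not counted. With 1 group and no contrast, these are descriptions with no test, and the common coefficient of variation between the pools was 19.3% over 14863 genes by edgeR.

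The authors' deposited TPM intervals give a second view, although their confidence level is not stated. These intervals did not overlap, with pool 1 higher, for 9 genes: Hmgcs1, Idi1, Msmo1, Sc5d, Insig1, Insig2, Lrp8, Vldlr and Abca1. Over all genes the same held for 25.8%. Mvk alone had intervals apart with pool 2 higher, against 13.2% of all genes. The TPM itself lay outside its own deposited interval for Insig2 in pool 1 and for Dhcr7, Srebf1 and Insig2 in pool 2. For Dhcr7 the deposited intervals overlapped (2.85 to 5.19 TPM in pool 1 and 1.54 to 2.98 TPM in pool 2), whereas its counting intervals, given above, did not.

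**Figure D3:**
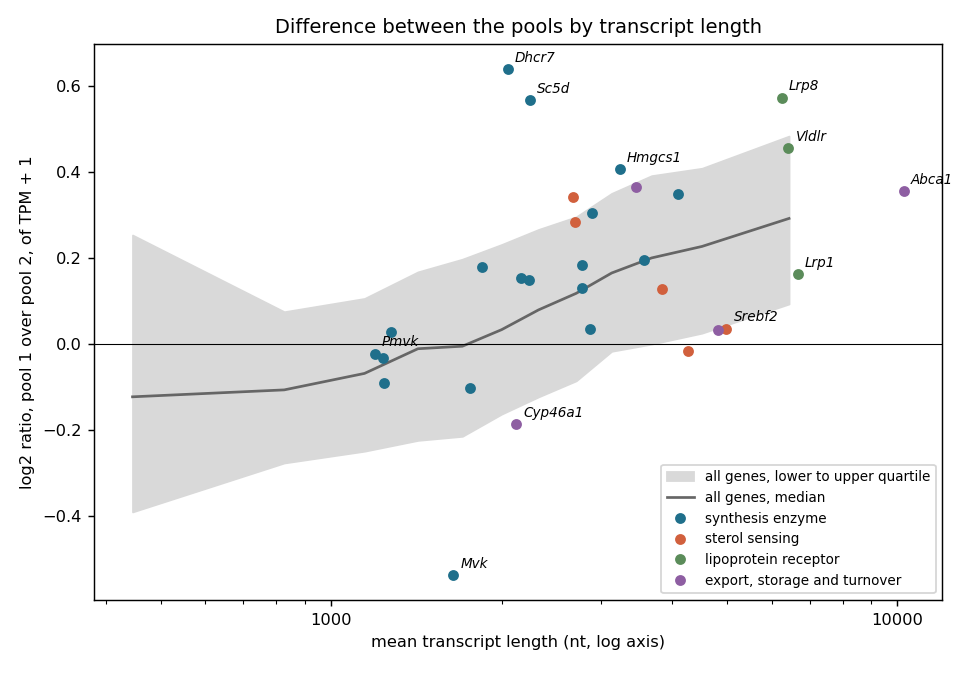
Log2 ratio of pool 1 over pool 2 against the mean transcript length on a log axis; coloured points are the sterol genes by role, the grey line and band the median and quartiles of all genes in 12 bins of length. The long transcripts of Lrp8 and Vldlr lie above 0 where the grey line also does, and Dhcr7, Sc5d and Mvk are among the genes outside the band.

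By role, the median log2 ratio was 0.15 for the synthesis enzymes, 0.13 for the sensing genes, 0.46 for the receptors and 0.19 for export, storage and turnover. Within synthesis the 7 genes of the mevalonate arm had a median of -0.02, with 3 of them higher in pool 1, and the 8 genes between lanosterol and cholesterol had 0.17, with 7 of them higher in pool 1. The cell markers moved between the pools as well. Purkinje cell markers had a median ratio of 0.51 on the log2 scale, with 5 of 7 higher in pool 1. The most abundant of them, Pvalb (-0.30) and Pcp2 (-0.06), were higher in pool 2. Their list summed to 20355 TPM in pool 1 and 19958 TPM in pool 2. The median was 0.25 for Bergmann glia and astrocytes, with 5 of 9 higher in pool 1 and Apoe, the most abundant, at -0.45. It was 0.31 for oligodendrocytes, -0.36 for granule cells and -1.80 for the globins. The part of these markers in the ratios of the sterol genes was not tested.

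The ratios moved with transcript length. The 7 sterol genes under 2000 nt had a median log2 ratio of -0.03, against -0.05 for all 6052 genes of that length. The 15 genes of 2000 to 4000 nt had a median of 0.19, against 0.13 for 4887 genes. Of the 15, 14 were higher in pool 1, and the share of the 4887 genes was not counted. The 8 genes of 4000 nt or more had a median of 0.26, against 0.25 for 2271 genes. With the ratios adjusted for length and expression over all genes, the median of the 30 was 0.05, and 18 were above 0. The median of all genes after that adjustment was 0.0001. The scale moved the median of the 30 too. Scaled to the spike-ins, the median of the 30 was -0.57 and that of all genes -0.66, so the direction is relative to the scale chosen. The median of the set less that of all genes was 0.09 on TPM, 0.07 with TMM, 0.08 with DESeq2 size factors and 0.05 after the adjustment for length and expression.

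A further list of 26 genes that act around this pathway was chosen with earlier results of these data known. Of these, 21 were detected, and their median was 6.20 TPM in pool 1 and 7.08 TPM in pool 2. The highest were Sorl1, a sorting receptor, with 119 TPM in pool 1 and 93.8 TPM in pool 2, and Abcg1, a sterol exporter, with 87.2 and 61.5 TPM. Gramd1b, which carries cholesterol from the plasma membrane to the endoplasmic reticulum, followed with 71.2 TPM in pool 1 and 41.2 TPM in pool 2. Ggps1, which makes the isoprenoid for prenylated proteins from the product of Fdps, had 58.7 TPM in pool 1 and 35.9 TPM in pool 2. These 4 genes were named because they were the highest of the list. The median over all 26 genes was below that of the 30 sterol genes in both pools.

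Among the genes of that list that were not detected, named after their values were seen, Gramd1c had 24 counts in pool 1 and 46 counts in pool 2. Soat2, a paralog of Soat1 that also esterifies cholesterol, had 3 counts in pool 1 and 0 in pool 2, and Lrp2 had 0 in pool 1 and 4 in pool 2. Ch25h, a cholesterol hydroxylase known from immune cells, had no count in either pool, which allows up to 0.121 TPM in pool 1 and 0.0953 TPM in pool 2 at 3 counts. The ratio between the pools had a median log2 of 0.12 over the 21 genes of the list that reached a mean TPM of 1. Of those, 3 were over 1.5-fold apart, against the 11.5% of all genes.

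**Figure D4:**
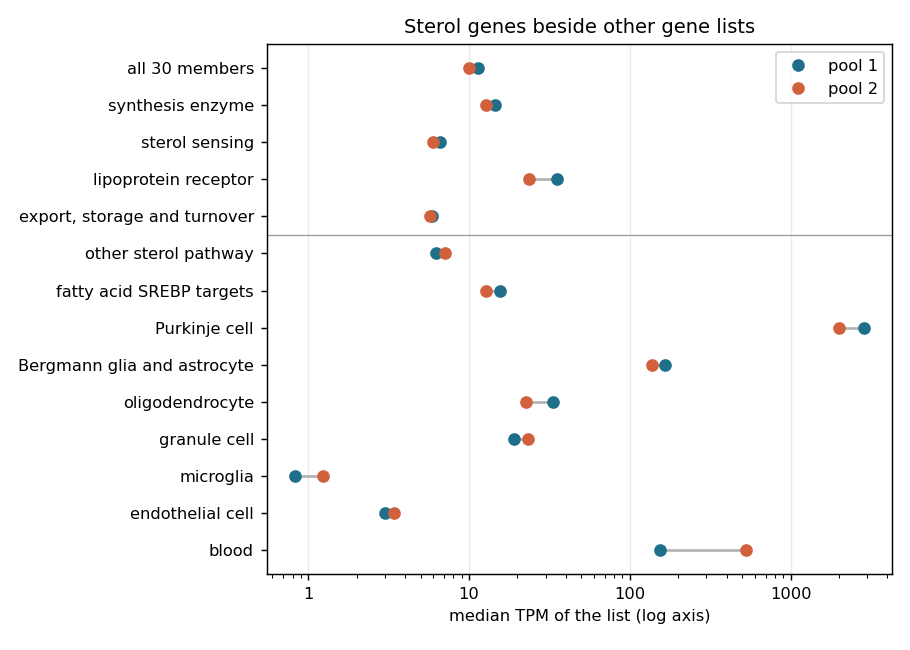
Median TPM of each gene list on a log axis, pool 1 in blue and pool 2 in orange, with the sterol genes and their roles above the line and other lists below it. The 30 sterol genes lie near 10 TPM, below the Purkinje cell, Bergmann glia and astrocyte, and oligodendrocyte markers, and above the microglial and endothelial ones. Of the roles, the lipoprotein receptors (35.5 TPM in pool 1 and 23.5 in pool 2) lie above the oligodendrocyte markers (33.2 and 22.7 TPM).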

How the data were processed

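Gene and transcript tables of both pools were used. The authors deposited expected counts, which are estimated reads and not normalized, and TPM, scaled to one common total per library that includes the spike-ins. Per the file headers and the notes beside the files, the build was mm10 and the annotation GENCODE M4. No aligner or quantifier is named (not given in the sources used here). Isoforms were described by the percent of the gene's TPM that the authors deposited for each transcript. Entries with numeric identifiers were left out. Symbols, transcript types and gene coordinates came from GENCODE M21 (GRCm38).

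The 30 genes and all lists were chosen with earlier results of these data known. All 30 are named, with the 4 highest of the other sterol and fatty acid lists, those with no counts, and the 3 highest of each marker list. A gene was detected when its TPM reached 1 in each pool. Ratios are log2(TPM + 1), pool 1 over pool 2. This scale understates ratios of low genes. The numbers of the pools name samples of 1 group and pair nothing. With 1 group no test between conditions was made. In R 4.3.3, edgeR 4.0.16 gave TMM scaling and the common dispersion and DESeq2 1.42.0 gave size factors, each from expected counts after rounding. Length adjustment used lowess with a span of 30%. Counting intervals are exact Poisson at 95%, and 3 counts are the limit that a count of 0 allows. They cover counting error only. The steps were tested on simulated data. Tables and figures were made in Python 3.11.15 with pandas 2.3.3, matplotlib 3.10.9 and numpy 2.4.6, intervals with scipy 1.17.1 and lowess with statsmodels 0.14.6.

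Alternatives tried were other detection minimums, pseudocounts, scales, filters, counts in place of TPM and each pool alone. The restriction to transcripts annotated as protein-coding was chosen after seeing the data. Promoters came from RefSeq on GRCm38.p6. Results of some listed genes are not reported here.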

Additional observations from a re-analysis of the deposited data

How the results depend on the processing

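The count of detected genes was within 1.5 times the reported 29 under all the other minimums tried (24 to 30), and was 28 with transcripts annotated as protein-coding alone, where Lss dropped out in addition. Using 1 pool at a time gave 29 to 30 genes, a median level of 9.98 to 11.45 TPM, and shares of 85.8% to 86.5% for Srebf1, 69.02% to 69.99% for Insig1, 48.3% to 49.6% for Vldlr and 17.2% to 19.2% for Pmvk. Without length correction the median level was 31.8 CPM, and with coding transcripts alone it was 9.20 TPM, where the share of Srebf1 was 85.3%, that of Vldlr 51.5% and that of Pmvk 19.8%. By expected counts the share of Srebf1 was 82.7% and that of Pmvk 10.9%. The median log2 ratio was -0.57 when scaled to the spike-ins, the only alternative that reversed it. Over 1.5-fold apart were 3 genes with a pseudocount of 0.1 (Dhcr7, Lrp8 and Mvk), 3 with TMM and 3 with DESeq2 size factors (Dhcr7, Lrp1 and Mvk in both), and 13 with the spike-ins, all of them higher in pool 2. Past 2-fold there were 0. For these settings the shares of all genes were not counted. With the spike-ins the median log2 ratio of all genes, -0.66, was itself past 1.5-fold. Restricted to a TPM of at least 10, 10 of 10 genes kept 1 leading transcript. The cause of these shifts was not tested, except that the spike-in scale moves every gene by one amount and the 2-fold and TPM limits leave fewer genes. No paired analysis was possible because there is 1 group. Depth limits Srebf2, Dhcr7 and Stard4 most, with 75 to 143 counts in a pool. Lss followed with 180 counts in pool 1 and 226 in pool 2, and Mvk with 165 and 319.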

Other observations

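Genes of fatty acid synthesis, which SREBP proteins are also known to switch on, were measured in the same pools. All 9 were detected, and the median was 15.7 TPM in pool 1 and 12.7 TPM in pool 2. Scd2, the stearoyl-CoA desaturase of brain, was the highest with 151 TPM in pool 1 and 122 TPM in pool 2. Elovl6, a fatty acid elongase, followed with 37.8 TPM in pool 1 and 24.2 TPM in pool 2, and Me1, an enzyme that supplies NADPH, with 30.7 and 23.05 TPM. Acly, which makes the cytosolic acetyl-CoA that feeds both pathways, had 17.6 TPM in pool 1 and 17.7 TPM in pool 2. The median log2 ratio of pool 1 over pool 2 was 0.28 over the 9 genes, and 2 of them were over 1.5-fold apart, against 11.5% of all genes. Both lists share SREBP proteins as known activators, and no test of a relation between them was made.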
